A study of Homo sapiens with 96 samples.

Results

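The melanocyte lineage genes described here were 10 entries of a table of 44659 genes, taken by symbol: the transcription factors MITF, SOX10 and PAX3, the pigment genes PMEL, MLANA, TYR, TYRP1 and DCT, and the receptors EDNRB and ERBB3. They were measured in A375, an established human skin melanoma line driven by a mutant BRAF kinase, over 96 libraries of cytoplasmic RNA. Cells were kept for 18 h in fresh medium with DMSO or with MAPKi, that is 500 nM vemurafenib, a BRAF inhibitor, and 500 nM cobimetinib, a MEK inhibitor. They were then given vehicle (DMSO), 100 µg/ml cycloheximide (CHX, which stops translation), 25 µM triptolide (T, which stops transcription) or both (TCHX, cycloheximide 5 min ahead of triptolide), and were harvested at 0, 1, 3 and 5 h. With 3 libraries for each combination of pretreatment, arm and time there were 32 groups, all of 1 cell line. Per the labels each harvest time was a batch of plates of its own, so time and batch cannot be told apart. Nothing in the labels says that the 3 replicates came from separate cultures, so p-values measure the spread between these libraries, which may be technical. The libraries held 2381351 to 12520154 counts, with a median of 7143396.

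In melanocytes, SOX10 and PAX3 switch on MITF, and MITF, which binds short E-box and M-box sequences, switches on the genes of pigment synthesis. Tyrosinase (TYR) starts melanin synthesis, DCT and TYRP1 act after it, PMEL builds the fibrils on which melanin is laid down, and MLANA takes part in the maturation of the pigment organelle. EDNRB, the endothelin B receptor, and ERBB3, a neuregulin receptor, carry growth signals into cells of this lineage. The ERK pathway, which BRAF and MEK feed, is known to restrain the differentiation programme of many melanomas.

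A gene was called detected in a group when each of its 3 libraries held more than 3 counts. By that rule 6 of the 10 genes, MITF, SOX10, PAX3, DCT, EDNRB and ERBB3, were detected in all 32 groups. PMEL was detected in all 16 MAPKi groups and in 12 of the 16 DMSO groups. TYRP1 was detected in 13 MAPKi groups and MLANA in 4, and neither was detected in a DMSO group. TYR was detected in none of the 32 groups. It had 66 counts in 23 of the 48 DMSO libraries and 91 counts in 33 of the 48 MAPKi libraries, with at most 9 counts in a library, and was not tested. A count of 0 in 1 library allows a level of up to 0.24 CPM (counts per 1000000 counts of the library) in the deepest library and 1.26 CPM in the shallowest, so low levels of TYR were not measurable at this depth. Floors of this kind cover counting error only, since reads were not tagged by molecule. The other 9 genes passed the filter on low counts, but MLANA and TYRP1 did so only through the MAPKi libraries in which they were high. On the DMSO libraries alone the filter kept 7 of the 10 genes.

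The assay reads the 3′ ends of transcripts, so levels in CPM were set side by side without a correction for length, although copies made by PCR are counted too. In the DMSO vehicle libraries at 0 h the order from the top was MITF with 346 ± 12.1 CPM (SD, n = 3), SOX10 with 233 ± 40.7, ERBB3 with 199.6 ± 11.7, DCT with 54.1 ± 7.79, EDNRB with 27.0 ± 0.74, PAX3 with 12.2 ± 1.73 and PMEL with 1.13 ± 0.47 CPM. The libraries of SOX10 and ERBB3 overlapped in this order, and TYR, TYRP1 and MLANA followed with means from 0.16 to 0.53 CPM that overlapped among themselves. With MAPKi the order was led by DCT with 2301.7 ± 596 CPM, ahead of MITF with 526 ± 67.4, ERBB3 with 499 ± 4.42 and SOX10 with 362 ± 39.7. MITF and ERBB3 overlapped there. EDNRB, PAX3 and PMEL followed with 49.1 ± 10.0, 21.4 ± 1.23 and 16.5 ± 2.63 CPM, then TYRP1 with 3.04 ± 0.86 and MLANA with 1.28 ± 1.70, whose libraries overlapped, and TYR with 0.24 ± 0.30. The 10 genes together took 874 ± 46.5 CPM in DMSO and 3780.2 ± 691.7 CPM with MAPKi. DCT held 6.23% ± 1.22 of that sum in DMSO and 60.3% ± 4.89 with MAPKi.

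**Figure D1:**
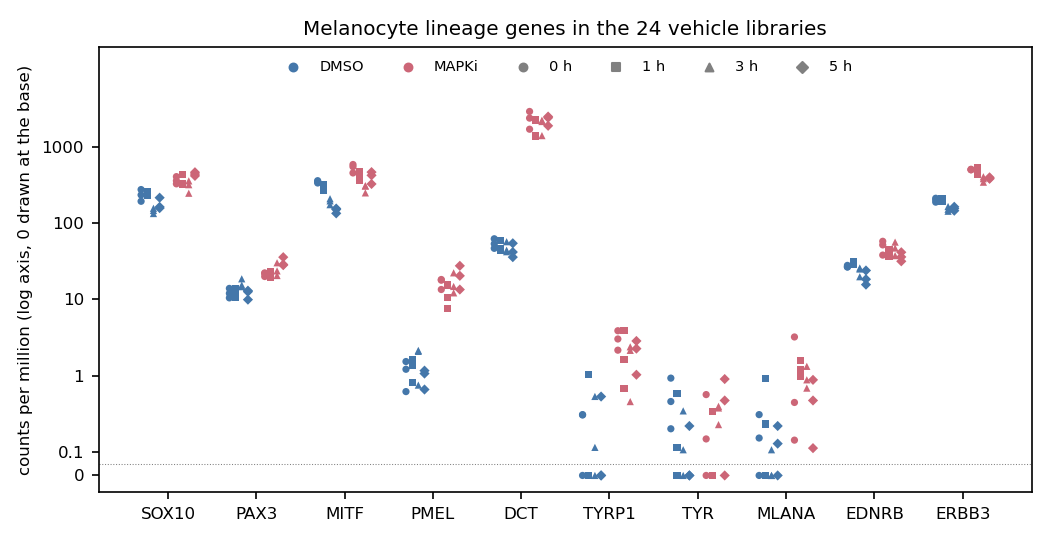
Levels of the 10 genes in the vehicle arm, in CPM on a log axis, with values of 0 drawn below the dotted line at the base; each point is 1 library, blue for DMSO and red for MAPKi, with the symbol giving the harvest time. DCT lies at 35.8 to 62.2 CPM in DMSO and at 1370.4 to 2871.8 CPM with MAPKi, whereas TYR stays below 1 CPM in both.

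To see how BRAF and MEK inhibition moved these genes, MAPKi was compared with DMSO in the vehicle arm. The 7 genes that the filter kept on the DMSO libraries alone were all higher over the 4 vehicle times, where 35.8% of the 14948 genes tested were called higher and 33.1% lower by edgeR's quasi-likelihood test with Benjamini-Hochberg adjustment. At 0 h alone the 7 were higher too, where 21.9% of all genes were called higher. The median log2 change over the 4 times was 0.76 for the 7 genes and 0.05 for all genes. MLANA and TYRP1, which entered through their MAPKi libraries, are given as values with no test. For each of the 7 genes the 3 MAPKi libraries lay above the 3 DMSO libraries at each of the 4 vehicle times, which held for 17.6% of all genes tested. Fewer or more cells in a state and less or more RNA per cell cannot be told apart in such libraries.

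The 3 transcription factors rose by less than 2-fold by edgeR at 0 h and in the mean over the 4 times. Their ratios of mean CPM were larger at 5 h than at 0 h. MITF had 348, 333 and 357 CPM in the DMSO libraries at 0 h and 582, 451 and 544.5 CPM with MAPKi. The groups did not overlap, and the difference was 1.39-fold at 0 h (log2 0.47 ± 0.11 SE, adjusted p = 0.00014) and 1.56-fold over the 4 times (log2 0.65 ± 0.05, adjusted p = 2.4e-18). SOX10, which activates MITF, had 192, 233 and 274 CPM in DMSO and 357, 325 and 404 CPM with MAPKi. It rose 1.42-fold at 0 h (log2 0.50 ± 0.12, adjusted p = 0.00031) and 1.68-fold over the 4 times. PAX3, a paired-box factor of the neural crest, had 12.02, 10.5 and 13.9 CPM in DMSO and 19.96, 22.2 and 21.9 CPM with MAPKi. Its rise was 1.59-fold at 0 h (log2 0.67 ± 0.20, adjusted p = 0.0032) and 1.69-fold over the 4 times, and without replicate 2 the call at 0 h was lost (adjusted p = 0.058). In vehicle at 5 h the ratio of the mean CPM values, MAPKi over DMSO, was 2.75 for MITF, 2.46 for SOX10 and 2.60 for PAX3, and SOX10 was already at 2.11 at 3 h. By the same measure the ratios at 0 h were 1.52, 1.56 and 1.76. From 0 to 5 h the MITF mean fell from 346 to 146 CPM in DMSO and from 526 to 402 CPM with MAPKi. The SOX10 mean went from 233 to 178 CPM in DMSO and from 362 to 437 CPM with MAPKi, and PAX3 from 12.2 to 11.9 and from 21.4 to 30.8 CPM. The groups did not overlap at these times.

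DCT and PMEL changed the most of the 7 genes. DCT, which encodes dopachrome tautomerase, had 62.2, 53.4 and 46.6 CPM in the DMSO libraries at 0 h and 2871.8, 1682.9 and 2350.5 CPM with MAPKi. It was 39.1-fold higher (log2 5.29 ± 0.23, adjusted p = 8.6e-33), and 38.9-fold higher over the 4 times (adjusted p = 8.0e-54). Over the 16 settings of arm and time the ratio of the DCT means, MAPKi over DMSO, ran from 38.4 to 53.1. PMEL had 1.22, 1.54 and 0.62 CPM in DMSO and 17.9, 13.5 and 18.2 CPM with MAPKi. It was 13.9-fold higher at 0 h (log2 3.80 ± 0.44, adjusted p = 9.0e-12) and 11.6-fold higher over the 4 times (log2 3.54 ± 0.21). Over the 16 settings the ratio of its means ran from 5.1 to 21.1.

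TYRP1 had 0, 0.31 and 0.31 CPM in the DMSO libraries at 0 h and 3.90, 3.04 and 2.17 CPM with MAPKi, at most 3 counts in a DMSO library against 15 to 26 with MAPKi. The fitted log2 change was 3.50 ± 1.05 at 0 h and 3.08 ± 0.54 over the 4 times. MLANA had 0, 0.15 and 0.31 CPM in DMSO and 0.45, 3.23 and 0.14 CPM with MAPKi, so the groups overlapped and replicate 2 alone stood high. Its fitted log2 change was 2.54 ± 1.23 at 0 h and 2.42 ± 0.66 over the 4 times, and without replicate 2 the latter was 1.43. The fitted values of TYRP1 and MLANA rest on DMSO groups near 0 and are no bound on the fold. TYR had 0.20, 0.46 and 0.94 CPM in DMSO and 0.15, 0.57 and 0 CPM with MAPKi, with overlap.

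Both receptors rose. ERBB3 had 187, 210.5 and 201 CPM in the DMSO libraries at 0 h and 495.5, 498 and 504 CPM with MAPKi, a 2.28-fold difference (log2 1.19 ± 0.07, adjusted p = 3.1e-26) with the tightest replicates of the 10 genes in the MAPKi group, relative to their mean. EDNRB had 26.7, 26.6 and 27.9 CPM in DMSO and 57.6, 38.0 and 51.7 CPM with MAPKi. It was 1.66-fold higher (log2 0.73 ± 0.18, adjusted p = 0.00036) at 0 h and 1.59-fold over the 4 times.

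**Figure D2:**
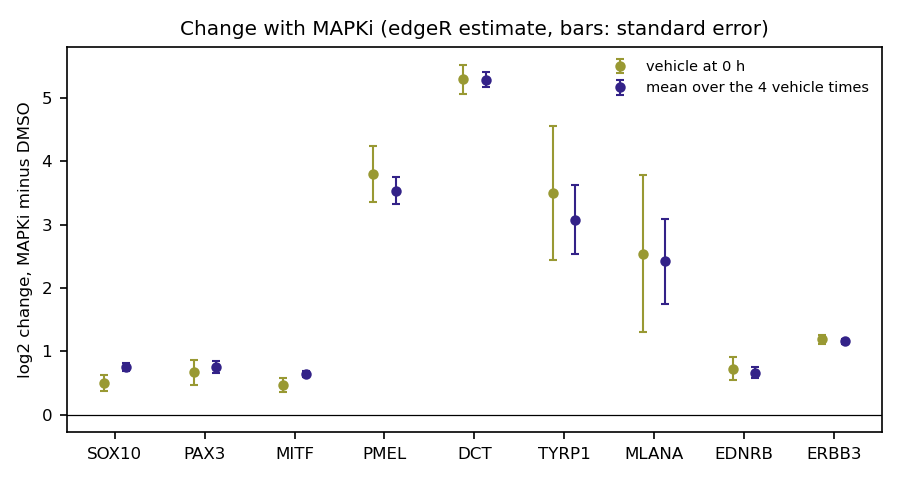
Log2 change of the 9 genes that passed the filter, MAPKi minus DMSO in the vehicle arm, as edgeR estimates with bars of 1 standard error, at 0 h and as the mean over the 4 times. DCT stands at 5.29 and 5.28, the transcription factors between 0.47 and 0.76, and the bars of TYRP1 and MLANA, which are shown with no test, are the widest.

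In the MAPKi cells replicate 2 was the lowest of the 3 libraries in 16 of 16 groups for both DCT and MITF. It was the lowest in 10 for PAX3, 8 for PMEL, 7 for EDNRB, 5 for ERBB3 and 4 for SOX10. The share of all genes with such a pattern was not computed. The median level of DCT over the 16 MAPKi libraries of a replicate was 2244.1 CPM in replicate 1, 1604.7 CPM in replicate 2 and 2207.3 CPM in replicate 3. In DMSO replicate 2 was the lowest in 12 of 16 groups for MITF and in 9 for DCT. The median total count of the MAPKi libraries was 6402305, 7454625.5 and 6832888.5 for replicates 1 to 3, and the part of depth in this difference was not tested.

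Because the changes of the pigment genes and of MITF were so unequal, the start sites of the genes were searched for the sequences that MITF and the cAMP response factor CREB are known to bind. Windows from 250 bases before to 50 bases after a RefSeq start (GRCh38.p14) were matched for 7 of the 10 genes, in 11 windows, and both strands were read. No window was matched for SOX10, PMEL and ERBB3, so they were not searched. The letters CATGTG, the core of the M-box, were found in 4 of the 11 windows (DCT, EDNRB, TYR and TYRP1) and in 11.1% of all 35116 windows. The longer TCATGTG, which contains the former, was found in 3 (DCT, TYR and TYRP1) and in 2.92% of all. CACGTG was found in none of the 11 and in 7.26% of all windows. The cAMP response element TGACGTCA was found in 1 window, at the MITF start used in melanocytes, and in 1.85% of all. These 4 windows are shown because 3 of them share the M-box letters and the fourth belongs to the factor that reads them. Matches are in capitals, read on the plus or the minus strand of the gene (CACATG is CATGTG on the other strand, CACATGA is TCATGTG), and the rest is in lower case.
DCT, chr13:94479633-94479932, minus strand: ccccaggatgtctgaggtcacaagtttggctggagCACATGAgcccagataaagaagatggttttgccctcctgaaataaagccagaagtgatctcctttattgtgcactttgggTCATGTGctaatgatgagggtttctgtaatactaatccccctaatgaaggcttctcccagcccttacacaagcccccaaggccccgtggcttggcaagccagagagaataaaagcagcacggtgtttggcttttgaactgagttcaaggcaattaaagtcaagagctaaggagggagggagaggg
TYRP1, chr9:12693135-12693434, plus strand: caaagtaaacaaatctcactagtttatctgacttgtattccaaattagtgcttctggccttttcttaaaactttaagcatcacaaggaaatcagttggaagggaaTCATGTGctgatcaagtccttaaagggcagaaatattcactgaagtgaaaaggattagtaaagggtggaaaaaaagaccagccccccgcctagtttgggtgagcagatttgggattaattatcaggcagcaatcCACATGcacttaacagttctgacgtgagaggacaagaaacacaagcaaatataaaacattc
TYR, chr11:89177625-89177924, plus strand: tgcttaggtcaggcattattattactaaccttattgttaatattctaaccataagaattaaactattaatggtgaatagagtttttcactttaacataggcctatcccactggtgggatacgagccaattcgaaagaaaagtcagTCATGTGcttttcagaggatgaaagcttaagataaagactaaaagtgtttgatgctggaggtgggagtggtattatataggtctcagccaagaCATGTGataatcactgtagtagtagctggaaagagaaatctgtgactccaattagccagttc
MITF, chr3:69936342-69936641, plus strand: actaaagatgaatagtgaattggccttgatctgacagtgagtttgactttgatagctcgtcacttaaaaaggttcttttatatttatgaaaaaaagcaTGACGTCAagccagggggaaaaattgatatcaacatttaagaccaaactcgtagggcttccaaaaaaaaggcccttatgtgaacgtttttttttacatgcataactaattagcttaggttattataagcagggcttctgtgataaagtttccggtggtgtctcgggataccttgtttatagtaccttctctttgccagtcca
The 3 genes with TCATGTG differed in what was measured: DCT was at 2301.7 CPM with MAPKi at 0 h, TYRP1 at 3.04 CPM and TYR, not detected in any group, at 0.24 CPM. A match of letters is a description and not a binding site. Reads from 3′ ends do not tell which of the 3 MITF starts was in use.

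In GENCODE v44 (GRCh38) the genes lie on chromosome 3 (MITF, 69739456 to 69968336, plus strand), 22 (SOX10, 37970686 to 37987422, minus), 2 (PAX3, 222199887 to 222298998, minus), 12 (PMEL, 55954105 to 55973317, minus, and ERBB3, 56076799 to 56103505, plus), 9 (MLANA, 5890889 to 5910606, and TYRP1, 12685439 to 12710285, both plus), 11 (TYR, 89177875 to 89295759, plus) and 13 (DCT, 94436811 to 94479682, and EDNRB, 77895481 to 77975529, both minus). Exons of some of them overlap other genes, and it is not stated whether the counting used the strand. On the other strand, SOX10 shares 260 exon bases with POLR2F, which had up to 4000 counts in a library, PMEL 89 with CDK2 (up to 5741) and TYRP1 102 with LURAP1L-AS1 (up to 21), and reads there cannot be told apart without strand. EDNRB shares 80 with OBI1-AS1, which had 0 counts in every library. On the same strand EDNRB shares 124 exon bases with the long noncoding gene ENSG00000233379 and ERBB3 31 with ENSG00000257411, where strand would not separate the reads. The antisense entry EDNRB-AS1 had at most 7 counts in a library.

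Other genes of the lineage were read from context lists over the 4 vehicle times, and they did not all move with the members. Over these times 35.8% of all genes tested were called higher and 33.1% lower. The filter on the DMSO libraries alone was read for the 10 members only, so the fold of a listed gene low in DMSO is uncertain. Of 28 listed pigmentation and melanosome genes, 22 were tested, 15 rose and 3 fell, with a median log2 change of 0.36. CAPN3, a calpain, rose by 2.85 and TSPAN10 by 2.21 on the log2 scale, whereas AP1S1, a coat adaptor subunit, fell by 0.56 and so did SLC24A5, a melanosomal ion exchanger, by 0.56. Of 17 reported MITF targets outside pigmentation, 16 were tested, 8 rose and 4 fell. IRF4 rose by 2.88 ± 0.47 (SE) and PPARGC1A, a regulator of mitochondrial genes, by 2.66 ± 0.12. DIAPH1 fell by 0.96 and the kinase gene CDK2 by 0.92.

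Of 28 melanocyte and neural crest transcription factors, 23 were tested, 11 rose and 12 fell. For this list and those that follow, the shares of all genes called higher and lower were 35.8% and 33.1%. FOXD3 rose by 3.53 and SOX4 by 3.42, while POU3F2, also known as BRN2, fell by 4.23 and ETV1 by 3.05. Among 18 receptors and ligands of the lineage 11 were tested, 4 rose and 5 fell, led by NGFR, the low-affinity nerve growth factor receptor, at 5.23 and ERBB4, a partner of ERBB3, at 1.499, against ECE1, which processes endothelins, at -1.61 and the neuregulin gene NRG1, whose product binds ERBB3, at -1.57. Of 20 genes of the dedifferentiated melanoma state 19 were tested, 6 rose and 11 fell. NGFR is on this list too, JUN rose by 2.68, NT5E fell by 2.69 and FOSL1 by 2.56. Of 12 melanoma identity genes 11 were tested, 3 rose and 6 fell, with L1CAM at 2.08 among those that rose and CSPG4 at -2.23 and MCAM at -1.13 at the bottom. As a check of the inhibitors, all 17 tested genes of the 18 on the ERK output list fell, SPRY4 by 7.82 and DUSP6 by 7.42. No called gene of these lists changed sign when libraries were scaled by total counts or by DESeq2 size factors.

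Markers of other cell types were read in the same libraries. Of 6 Schwann cell markers, 5 were tested, 3 rose, among them MBP by 1.55 and PMP22 by 0.91, and EGR2 fell by 4.73. Their summed level ran from 452 to 918 CPM in DMSO and from 1065.3 to 1784.4 CPM with MAPKi, and none was at 0. Of 8 keratinocyte markers 2 were tested and KRT14 had a fitted change of 4.26 ± 0.68 (SE). The sum was at 97.7 to 190.1 CPM in DMSO and 104 to 188 CPM with MAPKi, nearly all of it KRT10. KRT14 held little of that sum, so its fold is uncertain. KRT5, KRT1 and KRT6A were at 0. Of 8 fibroblast markers 4 were tested, FAP rose by 2.79 ± 0.16 (SE), COL1A1 by 1.85 ± 0.54 and PDGFRA fell by 1.72 ± 0.43. The sum of the 8 ran from 2.87 to 13.2 CPM in DMSO and from 16.1 to 38.9 CPM with MAPKi, and COL3A1 was at 0. Of 7 leukocyte markers 2 were tested and CD68, a lysosomal protein gene, rose by 2.17, the sum ran from 1.70 to 8.23 and from 10.4 to 27.2 CPM, and CD3E and NKG7 were at 0. Of 6 endothelial markers 1 was tested and not called (log2 1.09), sums were at most 3.37 CPM, and CDH5 and CLDN5 were at 0. The part of such cells in the results was not tested.

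Since the later comparisons rest on time, the vehicle arm itself was compared between 0 and 5 h. Of the 7 genes kept on the DMSO libraries alone, 2 were lower at 5 h in DMSO, where 0.482% of all genes were called lower. In MAPKi cells 2 of the 7 were lower, where 2.07% of all genes were. They were MITF and ERBB3 in both pretreatments. MLANA and TYRP1 are left out of this count and of those in the next comparisons. MITF went from a mean of 346 CPM at 0 h to 150, 134 and 154 CPM in the DMSO libraries at 5 h (log2 -1.24 ± 0.11, adjusted p = 1.3e-13). With MAPKi it reached 307, 247.5 and 304 CPM at 3 h and stood at 463, 324 and 420 CPM at 5 h (log2 -0.44 ± 0.11, adjusted p = 0.0068), a call that was lost without replicate 1 (adjusted p = 0.10) or replicate 3 (0.15). ERBB3 was 1.29-fold lower in DMSO (adjusted p = 0.00044) and 1.34-fold lower in MAPKi cells (adjusted p = 6.8e-06), and the DMSO call was lost without any 1 replicate number (adjusted p from 0.066 to 0.096). SOX10 in DMSO had log2 -0.38 ± 0.12 and was not called (adjusted p = 0.12).

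To measure how fast the mRNAs were lost, triptolide at 3 and 5 h was compared with vehicle at 0 h, after scaling on 36 genes whose share rose under triptolide in every replicate. Among the 7 genes the mRNAs of the 3 transcription factors fell the most in both pretreatments. In DMSO 5 of 7 genes were lower, where 48.7% of all genes were called lower, and in MAPKi cells 6 of 7, where 56.1% were. Of all calls 2.61% in DMSO and 2.23% with MAPKi were higher, and by TMM 37.6% and 48.7%, by total counts 14.1% and 12.7%. SOX10 was left at 49.7% ± 5.94 (SD, n = 3) of its vehicle level at 3 h and at 18.8% ± 2.41 at 5 h in DMSO, and at 36.6% ± 6.11 and 12.1% ± 2.63 with MAPKi. The log2 change was -1.71 ± 0.10 in DMSO (adjusted p = 1.7e-25) and -2.25 ± 0.10 with MAPKi (adjusted p = 5.0e-33). MITF was left at 30.3% ± 2.35 at 5 h in DMSO and at 21.7% ± 1.95 with MAPKi. PAX3 was left at 31.0% ± 6.13 and at 21.2% ± 4.58.

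DCT was left at 69.1% ± 14.9 at 5 h in DMSO and at 77.5% ± 14.1 with MAPKi, ERBB3 at 66.9% ± 4.00 and 68.2% ± 3.24, and EDNRB at 90.4% ± 7.20 and 68.3% ± 7.94. Their log2 changes, from -0.12 to -0.49 in the 6 comparisons, were all above or close to the median of all genes, which was -0.47 in DMSO and -0.59 with MAPKi. Scaled by TMM, DCT (log2 0.25) and EDNRB (0.20) in MAPKi cells and ERBB3 in both pretreatments (0.041 in DMSO and 0.19 with MAPKi) changed sign, so the calls on these 3 genes hang on the scaling. PMEL was not called by edgeR (adjusted p = 0.86 in DMSO and 0.085 with MAPKi). Against vehicle at 3 and 5 h in place of 0 h, a reference added after seeing the fall of MITF in the vehicle arm, MITF was lower by log2 -0.35 in DMSO (adjusted p = 0.00051) instead of -1.40, and by -1.21 with MAPKi instead of -1.85. With this reference ERBB3 was called in neither pretreatment (log2 -0.053, adjusted p = 0.50 in DMSO and -0.044, 0.55 with MAPKi), nor was DCT (-0.25, 0.18 and -0.23, 0.16), nor EDNRB with MAPKi (-0.19, 0.18), while PMEL with MAPKi was called lower (-0.71, 0.0077).

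**Figure D3:**
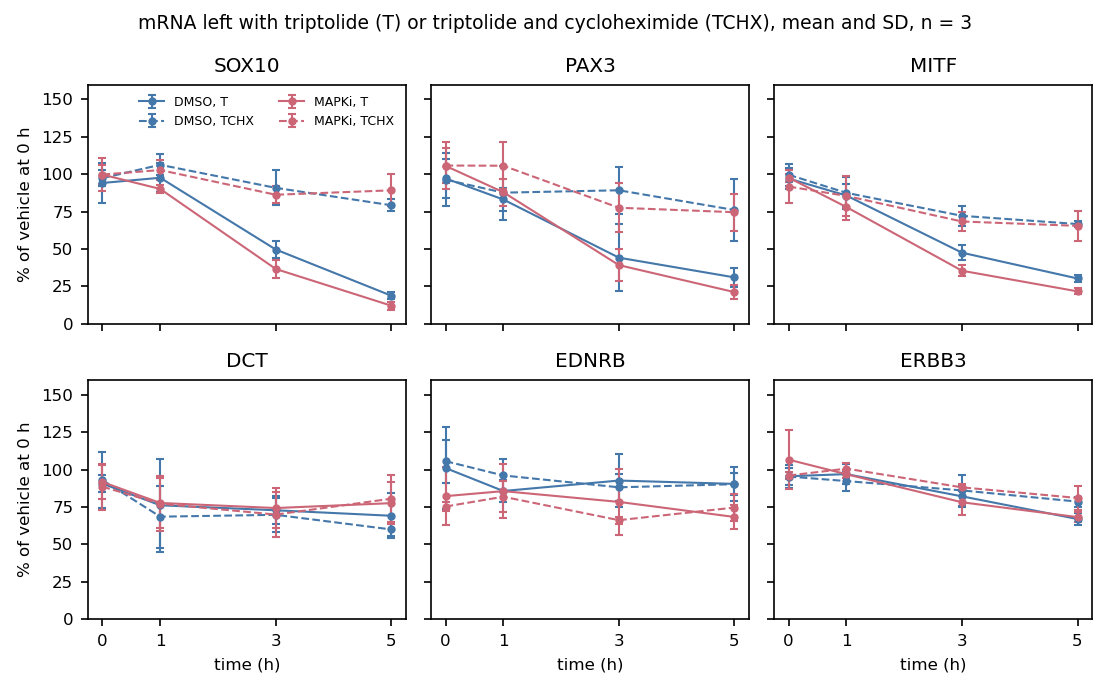
mRNA left in the T arm (solid) and the TCHX arm (dashed), as percent of the vehicle mean at 0 h after scaling on the stable genes, against time in hours; points are means and bars SD of 3 libraries, blue for DMSO and red for MAPKi. SOX10 falls to 18.8% and 12.1% at 5 h with triptolide but stays at 79.3% and 89.2% with both inhibitors, while DCT, EDNRB and ERBB3 differ little between the arms.

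Whether MAPKi altered the loss was asked by the difference of the 2 decays. Of the 7 genes SOX10 was called, with a larger loss under MAPKi (log2 -0.54 ± 0.15, adjusted p = 0.025). Of all genes 2.76% were called lower, and their median was -0.11. MITF had log2 -0.46 ± 0.15 (adjusted p = 0.087) and PAX3 -0.36 ± 0.27 (adjusted p = 0.64). With the replicate number as a block MITF was called too (-0.46, adjusted p = 0.0086), as it was without replicate 2 (-0.44, 0.044), by mitochondrial rRNA (-0.73, 0.00088) and with vehicle at 3 and 5 h as reference (-0.86, 3.3e-07). The SOX10 call was lost without replicate 1 (log2 -0.29, adjusted p = 0.75), without replicate 2 (-0.55, 0.19), by TMM (-0.36, 0.25) and by total counts (-0.49, 0.051). DCT differed by 0.09 ± 0.26 and ERBB3 by -0.02 ± 0.11.

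To find how far the loss needed translation, TCHX was compared with T at 3 and 5 h. The 3 transcription factors kept more mRNA when translation was stopped as well, and neither DCT nor PMEL was called on the stable-gene scale. By TMM, PMEL (log2 -0.66, adjusted p = 0.025), DCT (-0.41, 0.014) and EDNRB (-0.45, 0.0023) were called lower in MAPKi cells. In DMSO 3 of 7 genes were higher, where 28.4% of all genes were called higher, and in MAPKi cells 4 of 7, where 41.4% were. Of all calls 98.4% and 98.7% were higher, and by TMM 68.2% and 55.5%. At 5 h the SOX10 libraries of the DMSO cells had 314, 373 and 292 normalised counts with T and 1450.4, 1365.6 and 1317.2 with TCHX. With MAPKi they had 224, 332 and 342 with T and 1945.9, 2200.2 and 2479.7 with TCHX, again with no overlap. The share of all genes with no overlap here was not computed. The difference was 2.78-fold in DMSO (log2 1.48 ± 0.09, adjusted p = 4.9e-25) and 4.17-fold with MAPKi (log2 2.06 ± 0.09, adjusted p = 8.7e-34). MITF was 1.83-fold higher in DMSO (adjusted p = 1.4e-13) and 2.42-fold with MAPKi (adjusted p = 1.3e-21). PAX3 was 2.24-fold higher (adjusted p = 4.5e-09) and 2.68-fold higher (adjusted p = 5.9e-13).

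DCT, the gene that rose most with MAPKi, had log2 -0.14 ± 0.16 in DMSO and -0.02 ± 0.14 with MAPKi, and EDNRB -0.03 ± 0.12 and -0.06 ± 0.12, none of them called. ERBB3 was called in MAPKi cells (log2 0.21 ± 0.06, adjusted p = 0.0029), below the median of all genes of 0.34, a call that was lost without replicate 1 (0.15, adjusted p = 0.10) or replicate 2 (0.16, 0.10). It changed sign by TMM (-0.17, adjusted p = 0.0024) and by total counts (-0.013). Between the pretreatments 2 genes differed, where 6.82% of all genes were called higher and the median of all genes was 0.13. SOX10 (log2 0.58 ± 0.12, adjusted p = 0.00058) and MITF (log2 0.40 ± 0.12, adjusted p = 0.032) gained more from cycloheximide under MAPKi. Without replicate 1 neither was called (adjusted p = 0.097 and 0.24), and MITF was also lost without replicate 3 (0.24), by TMM (log2 0.25, adjusted p = 0.22), by total counts (0.32, 0.060) and with stable genes at 3 or 5 h (0.37, 0.054).

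The study's index of translation-dependent decay (TDD) is the difference TCHX minus T divided by vehicle at 0 h, taken within a replicate number. For SOX10 the index at 5 h was 0.61 ± 0.12 in DMSO and 0.77 ± 0.06 with MAPKi, for MITF 0.37 ± 0.05 and 0.44 ± 0.06, and for PAX3 0.46 ± 0.15 and 0.54 ± 0.13. For DCT it was -0.08 ± 0.08 and 0.03 ± 0.03, for EDNRB -0.0030 ± 0.04 and 0.05 ± 0.10, and for ERBB3 0.12 ± 0.06 and 0.13 ± 0.08. The indices of SOX10, PAX3 and MITF were above 0 in each of the 3 replicates at 3 and 5 h. Those of ERBB3 were too, except in DMSO replicate 2 at 3 h (-0.043), and those of DCT and EDNRB lay on both sides of 0. The share of all genes above 0 throughout was not computed. PMEL ranged from -0.86 to 0.67 at 5 h in DMSO, where its counts are few. By limma none of the 7 genes with an index differed between MAPKi and DMSO, and 0% of the 12997 genes tested did. At an unadjusted p under 0.05 by limma it was 1 of the 7, SOX10, and 1936 of the 12997 genes tested. The SOX10 difference was 0.12 ± 0.05 (adjusted p = 0.27 by limma), where the median of all genes was 0.063. No other tool was run on the index.

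**Figure D4:**
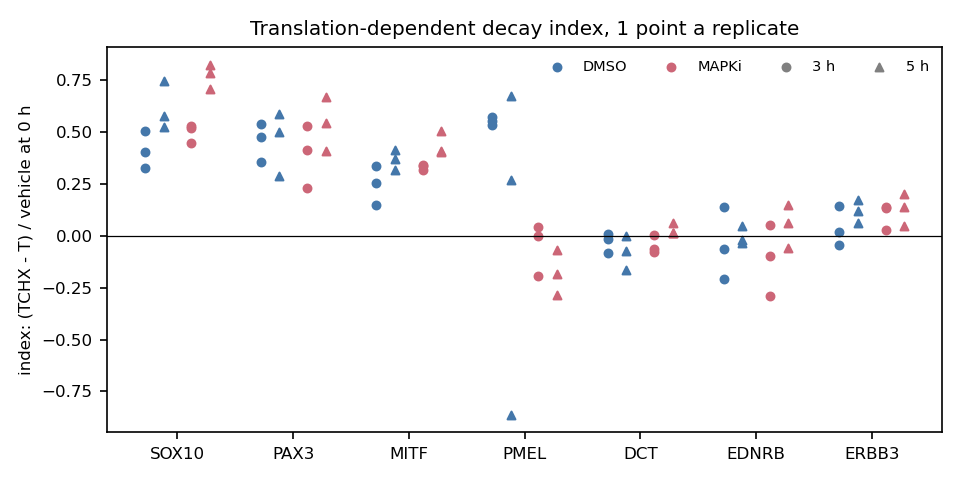
Translation-dependent decay index of 7 genes, (TCHX minus T) divided by vehicle at 0 h; each point is 1 replicate, blue for DMSO and red for MAPKi, circles at 3 h and triangles at 5 h. SOX10, PAX3 and MITF lie above 0 in every replicate, ERBB3 in all but DMSO replicate 2 at 3 h, and DCT and EDNRB around it.

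With translation alone stopped, the 3 transcription factors stood above vehicle at the same times in DMSO cells. With CHX against vehicle at 3 and 5 h, 3 of 7 genes were higher in DMSO, where 18.3% of all genes were called higher. SOX10 had 295, 317 and 338.5 CPM in the DMSO libraries at 5 h with CHX and 162, 156.5 and 214 CPM with vehicle, and the 2 times together gave 1.99-fold (log2 0.99 ± 0.09, adjusted p = 2.2e-16). PAX3 was 1.54-fold higher (adjusted p = 0.00018) and MITF 1.46-fold (adjusted p = 1.4e-08). MITF itself fell with CHX, from a mean of 341.5 CPM at 0 h to 207.7 CPM at 5 h. With vehicle it fell further, from 346.2 to 146.2 CPM. In MAPKi cells 1 gene was higher, where 15.9% of all genes were, and 3 were lower, where 13.9% were. The higher one was SOX10, with 636, 689 and 618 CPM at 5 h against 413, 436.5 and 461 CPM with vehicle (1.44-fold over both times, adjusted p = 5.8e-07).

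The genes lower with CHX in MAPKi cells were PMEL, DCT and EDNRB. PMEL had 9.32, 10.8 and 4.82 CPM at 5 h with CHX and 27.6, 13.5 and 20.4 CPM with vehicle, a 1.99-fold difference over both times (log2 -0.99 ± 0.24, adjusted p = 0.00056). DCT had 1656.3, 1417.4 and 1571.4 CPM with CHX and 2463.5, 1865.4 and 2376.4 CPM with vehicle (log2 -0.45 ± 0.13, adjusted p = 0.0064), and EDNRB was 1.26-fold lower (adjusted p = 0.032). For both PMEL and DCT the groups at 5 h did not overlap, and the share of all genes for which this held was not computed. All 3 calls were lost without replicate 1 (adjusted p = 0.056 for PMEL, 0.079 for DCT and 0.16 for EDNRB), and those of DCT (0.065) and EDNRB (0.23) without replicate 3.

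The response to CHX differed between the pretreatments for 2 genes, where 6.59% of all genes were called lower. Relative to vehicle, MITF with CHX stood at 0.54 ± 0.08 on the log2 scale in DMSO and at 0.03 ± 0.08 with MAPKi. The difference was -0.52 ± 0.11 (adjusted p = 0.00028). SOX10 differed by -0.47 ± 0.12 (adjusted p = 0.0038). Of all calls 41.3% were higher, and 76.1% by total counts. Both were lost without replicate 1 (adjusted p = 0.069 and 0.12), and SOX10 also when scaled by total counts (0.068). The vehicle libraries that serve as reference moved too: MITF in MAPKi cells was at 286 CPM at 3 h and 402 CPM at 5 h in vehicle, and at 380 and 359 CPM with CHX.

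**Figure D5:**
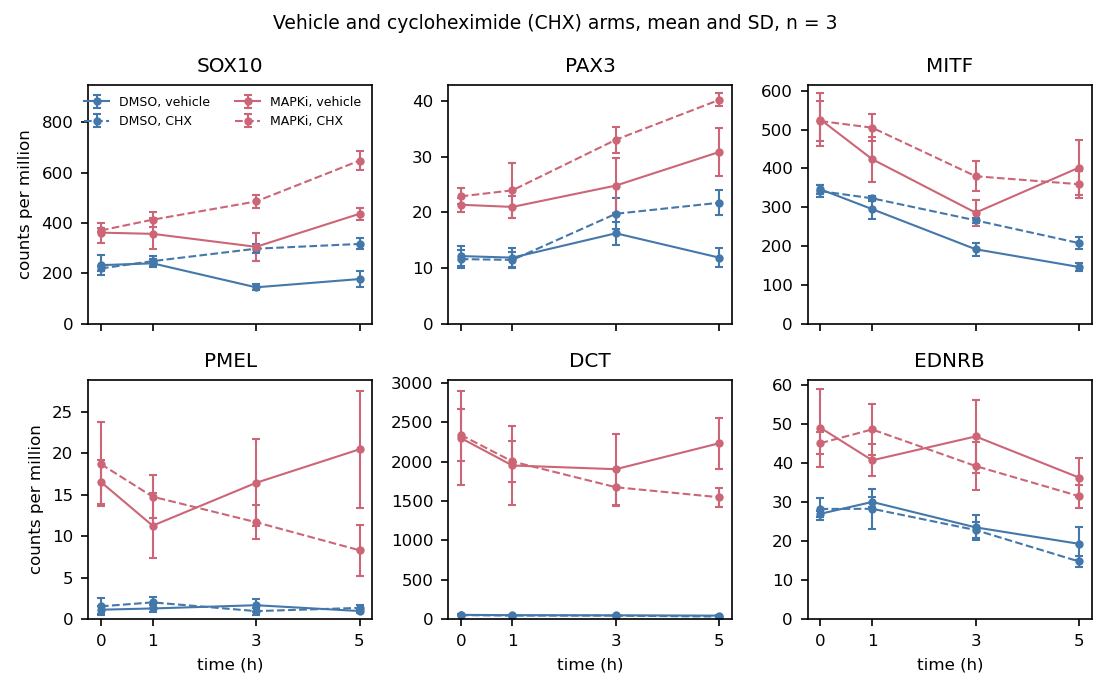
Levels in CPM (axes from 0) against time in hours in the vehicle (solid) and CHX (dashed) arms for 6 genes; points are means and bars SD of 3 libraries, blue for DMSO and red for MAPKi. SOX10 with MAPKi reaches a mean of 648 CPM at 5 h with CHX against 437 CPM with vehicle, and PMEL and DCT end lower with CHX.

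Across the 32 group means of log2 CPM, DCT followed ERBB3 (Pearson r = 0.98), PMEL (0.98), TYRP1 (0.96) and EDNRB (0.86) more closely than MITF (0.54) or SOX10 (0.43), while SOX10 followed PAX3 (0.90) and MITF (0.81). The 32 groups are 16 of DMSO and 16 of MAPKi, and the step between the pretreatments is part of each of these values, which are given as a description. Within the 16 DMSO groups and within the 16 MAPKi groups, in that order, the r of DCT was 0.53 and 0.17 with ERBB3, -0.18 and 0.82 with PMEL, 0.63 and 0.53 with EDNRB and -0.33 and -0.52 with SOX10. In the same order it was -0.11 and 0.35 with TYRP1, which was not detected in a DMSO group, and 0.19 and -0.083 with MITF. SOX10 followed PAX3 within both (0.77 and 0.95) and MITF within both (0.69 and 0.81). Among the genes most like DCT were ANGPTL7 (0.998) and ADD3 (0.997), and among those most like PMEL were GPNMB, a melanosomal glycoprotein related to it (0.99), and CITED1 (0.98). Within DMSO and within MAPKi these values were 0.31 and 0.40 for ANGPTL7, 0.66 and 0.67 for ADD3, -0.043 and 0.86 for GPNMB and 0.23 and 0.60 for CITED1. ERBB3 was most like NAV2 (0.99), SEMA6A (0.99) and UTRN (0.99), and EDNRB like LAPTM4A (0.95), CNPY2 (0.95) and SLC44A1 (0.95). BORCS6 (0.97) and ANKRD54 (0.97) were among those most like SOX10, and within either pretreatment their r with it was from 0.93 to 0.98. PAX3 was most like FOXO3 (0.97), BBC3 (0.97) and C21orf91 (0.97), and MITF like LINC01366 (0.91), TMEM51 (0.90) and KCTD1 (0.89).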

How the data were processed

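QuantSeq 3′ libraries from 96 samples of A375 cytoplasmic RNA were analysed. The authors deposited raw counts per gene, made with fastp 0.20.1, HISAT2 2.2.1 and htseq-count (HTSeq 0.13.5) on GRCh38.p13, per the labels and the study's methods; the strand setting is not given in the sources used here. Groups came from the sample titles. The 10 genes and the context lists were chosen with earlier results of these data known. Genes were kept by filterByExpr over the 32 groups (14948 genes) and fitted with edgeR 4.0.16 in R 4.3.3, a quasi-likelihood test with 1 mean per group over all 96 libraries. Genes were called at a two-sided Benjamini-Hochberg adjusted p under 0.05. TMM scaled the comparisons without triptolide. DESeq2 1.42.0 size factors from 36 stable genes scaled those with it: genes above 0.2 CPM in vehicle at 0 h, at least 1.1 times that level at 3 and 5 h of triptolide, and with an initial level above 10% of the later ones, in every replicate. The TDD index was fitted with limma 3.58.1 (pretreatment, time and replicate). Normalised counts are counts divided by the stable-gene factor.

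All 10 genes were named, with the 3 genes of highest Pearson r over group means of log2(CPM + 0.5) for those tested and detected in at least 16 groups, and up to 2 called genes at each end of every list (pigmentation, MITF targets, transcription factors, receptors and ligands, dedifferentiated state, melanoma identity, ERK output and 5 sets of cell type markers). A few genes that these rules name are not reported here. Same-numbered libraries of compared groups deviated together with r from -0.10 to 0.23, over 0.1 in 9 of 48 pairs, so numbers were not taken as pairs. For DCT and MITF, however, replicate 2 was the lowest in 16 of 16 MAPKi groups, against 10 for PAX3 and 4 for SOX10. With the replicate block MITF was called in the decay difference (edgeR, adjusted p = 0.0086). The alternatives were the filter, DESeq2, other scalings, other references, a replicate block and leaving out each replicate. The scripts were tested on simulated data.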

Additional observations from a re-analysis of the deposited data

Results flagged for a closer look

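For 2 genes the response to an inhibitor differed between DMSO and MAPKi by a test of the difference itself (edgeR, adjusted p under 0.05). SOX10 lost more mRNA under triptolide with MAPKi than with DMSO (difference of the log2 changes -0.54). It also gained more from cycloheximide on top of triptolide (0.58), as did MITF (0.40), where the median of all genes was 0.13. With cycloheximide alone the excess over vehicle was smaller with MAPKi than with DMSO for MITF (-0.52) and for SOX10 (-0.47). The 2 cycloheximide comparisons, with and without triptolide, therefore differ in sign between the pretreatments for both genes, and these 2 share no libraries. All 5 calls were lost when replicate 1 was left out. The part of the fall of MITF in the vehicle arm in the last difference was not tested.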

How the results depend on the processing

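Of 131 recomputed counts of called genes, in which MLANA and TYRP1 were not left out, 107 stayed within 1.5 times the reported count. For MAPKi minus DMSO, leaving out replicate numbers cost the 7 genes only the PAX3 call at 0 h, without replicate 2 (edgeR, adjusted p = 0.058). The counts without a replicate number were 1 to 1 in DMSO and 1 to 2 with MAPKi for vehicle at 5 h, 4 to 5 and 4 to 6 for triptolide, 3 to 3 and 3 to 4 for TCHX minus T, 3 to 3 and 1 to 4 for CHX, 0 to 1 for the decay difference and 0 to 2 for the other 2 differences. Scaled by total counts, triptolide gave 3 genes in DMSO and 3 with MAPKi, the decay difference 0 and the TCHX difference 1. By TMM these were 3 in DMSO, 0 for the decay difference and 1 for the TCHX difference, and TCHX minus T in MAPKi cells gave 7, the 3 transcription factors higher and PMEL, DCT, EDNRB and ERBB3 lower. Stable genes at 3 or 5 h gave 1 for the TCHX difference, with MITF lost in each of these 3 scalings, and mitochondrial rRNA gave 2 for the decay difference. With vehicle at 3 and 5 h as reference, chosen after seeing the data, triptolide gave 3 in DMSO and the decay difference 2. The replicate block gave 2 for the decay difference, adding MITF (adjusted p = 0.0086), 3 for vehicle in DMSO, adding SOX10 (0.042), and 7 for triptolide with MAPKi, adding PMEL (0.031), and left the other counts as reported; the 7 TDD indices had 0 calls with and without it.

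Reversed signs came with triptolide by TMM, for ERBB3 in DMSO (0.041) and with MAPKi (0.19), DCT with MAPKi (0.25) and EDNRB with MAPKi (0.20), and for ERBB3 in TCHX minus T with MAPKi by TMM (-0.17) and total counts (-0.013). The cause was not tested. DCT under triptolide was also lost in DMSO without replicate 1 (adjusted p = 0.058) or 3 (0.068) and with MAPKi by DESeq2 (0.066) and without replicate 1 (0.21) or 3 (0.10), and EDNRB with MAPKi without replicate 1 (0.052) or 3 (0.11). Over all genes the calls moved by over 1.5 times for MAPKi minus DMSO at 0 h (6865, and 10409 over the 4 arms), vehicle in DMSO (159, against 255 by DESeq2, 410 unfiltered and 40 to 68 without a replicate number) and with MAPKi (499, against 111 to 174), triptolide (7468 and 8576, against 4602 and 5311 by total counts and 4954 in DMSO by TMM), the decay difference (474, against 129 to 198, 1623 by mitochondrial rRNA and 1364 with the added reference), the TCHX difference (1063, against 443 to 544 and 553 by TMM), the CHX difference (1678, against 767 and 805 without replicate 1 or 3) and the TDD index (0, against 13 with no replicate block and 6 from the T arm at 0 h). The share of higher calls also moved for vehicle with MAPKi (37.9%, 57.0% by total counts), CHX with MAPKi (53.4%, 71.8%), TCHX minus T with MAPKi (98.7%, 83.4%), and by TMM for the decay difference (13.1%, 41.3%) and the TCHX difference (95.9%, 76.1%). Depth limits MLANA, TYR and TYRP1, with medians of 1 to 5 counts per library.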
